A study of Mus musculus with 14 samples.

Results

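The genes of glycolysis and of glucose and lactate transport were followed in ribosome-bound mRNA of mouse dopaminergic neurons that lack transferrin receptor 1 (Tfr1, encoded by Tfrc). The set names 30 genes, each read on the probe set of that gene whose mean signal over the arrays was highest, and 26 of the 30 could be tested among 18193 genes. Gpi1, Pfkfb1 and Eno1 had no probe set listed under their gene alone and were not analysed here. Gapdh was read only through the array's control probe sets, outside the test.

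The groups were Tfr1-null at 3 weeks (4 libraries), control at 3 weeks (3 libraries), Tfr1-null at 10 weeks (3 libraries) and control at 10 weeks (4 libraries). Tfr1-null mice (Tfr1ΔDN) carried a conditional deletion of Tfr1 in dopaminergic neurons, and the controls were heterozygous for the Tfr1 allele, so they were not wild type. All mice were F2 animals of 129Sv and C57BL/6 on a RiboTag background, in which a tagged ribosomal protein allows the ribosomes of a chosen cell type, with their mRNA, to be precipitated from a lysate of ventral midbrain. Which promoter drove the Cre was not stated in the labels. The labels do not say whether libraries of a group came from separate animals, so the p-values measure the spread between libraries, which may be technical.

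Glycolysis splits glucose into pyruvate in the cytosol and yields a little ATP without oxygen. Glucose enters through transporters of the Slc2a family, is trapped by hexokinase and committed at phosphofructokinase, whose activator fructose 2,6-bisphosphate is made by the Pfkfb enzymes. Lactate dehydrogenase turns pyruvate into lactate with the recovery of NAD+, and monocarboxylate transporters carry lactate across the membrane. Most steps are served by several isoforms: neurons mainly use the glucose transporter encoded by Slc2a3 and the hexokinase encoded by Hk1. Slc2a1, Hk2, Pfkfb3, Pgk1 and Ldha are among the known targets of hypoxia-inducible factor, whose prolyl hydroxylases need iron and oxygen. These are the members called higher at both ages below and not a full list of its targets in the set. Targets that were not called are left out, so the list says nothing about its targets as a group. In the set of 12 libraries described below, 13 of the 26 tested members were called at neither age. The part of this factor in the results was not tested.

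Promoters are shown for Slc2a1, Hk2, Pfkfb3, Pgk1 and Ldha, the 5 members called higher at both ages below, and for Eno3, the member called lower, so that the short core of the hypoxia response element can be seen in them. Each is the 250 bases before an annotated start (RefSeq, GRCm38.p6), 5′ to 3′ on the gene's strand, and capitals mark ACGTG or GCGTG or their reverse complements CACGT and CACGC. The string ACGTG also lies inside the E-box CACGTG, where it is found on both strands.
Slc2a1 (chr4:119108495-119108744, plus strand): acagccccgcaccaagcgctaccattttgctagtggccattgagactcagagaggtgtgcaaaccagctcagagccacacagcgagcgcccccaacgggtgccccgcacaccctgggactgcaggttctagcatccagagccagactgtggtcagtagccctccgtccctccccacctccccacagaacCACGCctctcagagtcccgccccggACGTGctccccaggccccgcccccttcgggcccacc
Hk2 (chr6:82774455-82774704, minus strand): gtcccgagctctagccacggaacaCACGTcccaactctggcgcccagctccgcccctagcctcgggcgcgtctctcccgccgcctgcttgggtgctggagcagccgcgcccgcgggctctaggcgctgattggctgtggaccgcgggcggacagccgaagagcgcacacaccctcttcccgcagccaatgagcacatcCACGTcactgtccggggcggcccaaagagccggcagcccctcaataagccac
Pfkfb3 (chr2:11553930-11554179, minus strand): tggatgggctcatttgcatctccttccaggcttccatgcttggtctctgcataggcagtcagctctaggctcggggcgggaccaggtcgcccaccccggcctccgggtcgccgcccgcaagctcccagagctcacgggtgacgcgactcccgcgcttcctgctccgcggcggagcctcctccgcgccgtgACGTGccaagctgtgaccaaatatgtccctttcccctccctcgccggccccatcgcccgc
Pgk1 (chrX:106186850-106187099, plus strand): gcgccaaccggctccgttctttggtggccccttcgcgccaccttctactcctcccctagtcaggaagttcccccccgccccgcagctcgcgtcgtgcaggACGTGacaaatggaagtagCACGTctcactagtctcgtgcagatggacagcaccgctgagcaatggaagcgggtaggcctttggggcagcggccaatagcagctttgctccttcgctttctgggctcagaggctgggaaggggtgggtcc
Ldha (chr7:46845554-46845803, plus strand): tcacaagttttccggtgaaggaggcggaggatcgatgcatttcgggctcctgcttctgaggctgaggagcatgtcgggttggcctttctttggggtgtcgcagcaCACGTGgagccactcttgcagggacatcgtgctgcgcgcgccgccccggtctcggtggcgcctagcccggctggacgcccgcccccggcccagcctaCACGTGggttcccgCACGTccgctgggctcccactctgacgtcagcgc
Eno3 (chr11:70656926-70657175, plus strand): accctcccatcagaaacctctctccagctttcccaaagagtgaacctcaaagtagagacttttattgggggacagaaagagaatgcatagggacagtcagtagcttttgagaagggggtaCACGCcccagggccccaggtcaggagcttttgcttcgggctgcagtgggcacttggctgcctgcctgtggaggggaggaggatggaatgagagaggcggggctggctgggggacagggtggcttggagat

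In the sequences above, Ldha held 5 matches, Slc2a1, Hk2 and Pgk1 held 2 each, and Pfkfb3 and Eno3 held 1 each. These counts depend on the start chosen: a second promoter, not shown, held 1 match for Ldha and 3 for Pfkfb3. Hk1, which was not called, held 0 matches in 1 promoter and 3 in another. Over the set, 23 of the 28 genes with a promoter entry held at least 1 match in at least 1 promoter (82.1%), against 11226 of 27025 genes (41.5%) and 12679 of 32851 promoters (38.6%) in the whole table. The share was 10 of 11 among members called higher at an age, with Tpi1 the gene without a match, and 9 of 12 among tested members that were not called. The members' promoters were also richer in CG pairs, with a median of 14 CG pairs against 6 over all genes, and both motifs contain a CG pair. Slc2a3 and Slc16a7 had no promoter entry. A match is a string of letters and not a measured binding site.

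The deposited values are log2 signals, so a difference of 1 is a 2-fold difference. Array medians were 6.41 to 6.47 at 3 weeks, against 7.36 to 7.43 at 10 weeks, and 1 of 7 libraries at 3 weeks but 7 of 7 at 10 weeks had the male pattern of Y-linked and Xist signal. Signal levels were therefore not compared between the ages. The 5′ control probe set of Tfrc read between 6.88 and 7.73 in the libraries labelled Tfr1-null 3 weeks 2 to 4, against 9.50 to 9.59 in 3-week controls, while 9.67 was read in the library labelled Tfr1-null 3 weeks 1. At 10 weeks it read between 7.79 and 9.29 in Tfr1-null libraries, against 9.63 to 10.44 in the libraries labelled Control 10 weeks 2 to 4, and the library labelled Control 10 weeks 1 read 8.55. The middle control probe set of Tfrc ran the other way: it read 10.70 to 10.98 in the libraries labelled Tfr1-null 3 weeks 2 to 4 and 11.39 to 11.69 in Tfr1-null libraries at 10 weeks, against 8.80 to 8.86 in 3-week controls and 9.17 to 9.86 in the libraries labelled Control 10 weeks 2 to 4. On it, 8.82 was read in the library labelled Tfr1-null 3 weeks 1 and 11.43 in the library labelled Control 10 weeks 1. Which probe sets lie in the deleted part is not known here. The source name of the library labelled Tfr1-null 3 weeks 1 also calls it a control. For the library labelled Control 10 weeks 1 the grounds given here are the Tfrc control probe sets alone. The labels of these 2 libraries are taken as doubtful, and results are given for 12 libraries without them (3 per group). The values for all 14 as labelled are set beside those results or in later paragraphs.

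Among the 12 libraries, members of the set rose in the Tfr1-null libraries at both ages. The largest rises were in Hk2, Pfkfb3, Pfkl, Ldha and Slc2a1 at 3 weeks and in Hk2, Pfkfb3, Slc2a1 and Ldha at 10 weeks. At 3 weeks 6 of the 26 members rose and 0 fell (limma, adjusted p under 0.05 over all genes), against 0.682% of all genes called higher and 1.16% called lower. At 10 weeks 11 members rose and 1 fell, against 4.73% of all genes higher and 6.34% lower. Slc2a1, Hk2, Pfkfb3, Pgk1 and Ldha were called at both ages, Pfkl at 3 weeks, and Pfkfb2, Tpi1, Pgam1, Eno3, Pkm, Slc16a1 and Slc16a7 at 10 weeks. The median difference over the 26 members was 0.17 at 3 weeks and 0.30 at 10 weeks, against 0.01 and -0.01 over all genes. With all 14 libraries as labelled, limma called 0 members at either age, where it called 0% of all genes at 3 weeks and 1.21% at 10 weeks. In that fit 7 members at 3 weeks (4.67% of all genes) and 14 at 10 weeks (19.9% of all genes) had an unadjusted p under 0.05, and the members' median differences were 0.12 and 0.23.

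**Figure D1:**
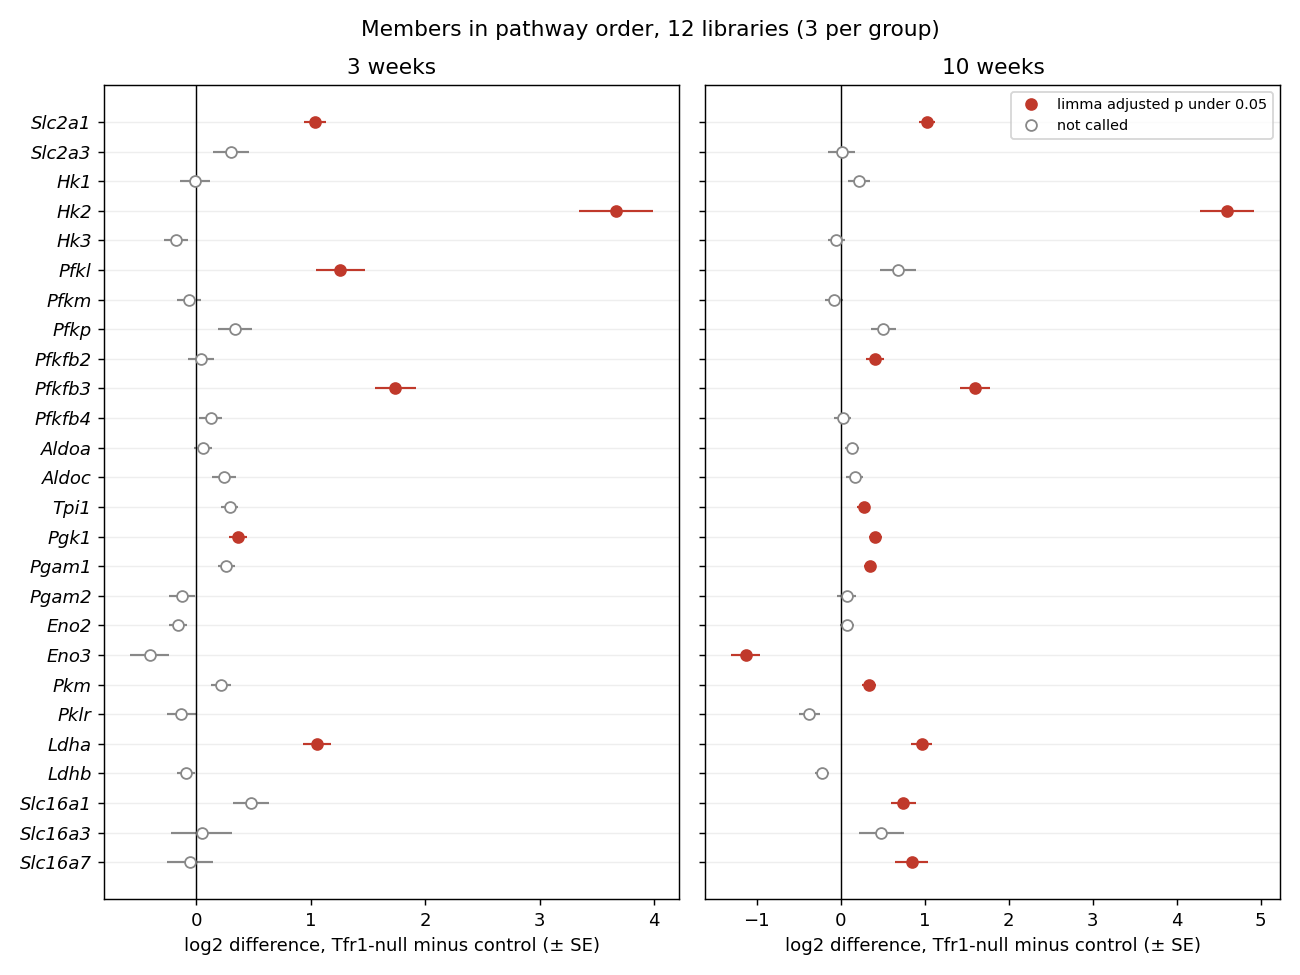
Log2 difference of Tfr1-null minus control (x axis, ± SE from limma) for the 26 tested members in pathway order (y axis), at 3 weeks (left) and 10 weeks (right), in 12 libraries with 3 per group; the x axes of the panels differ. Filled points passed an adjusted p of 0.05; Hk2 lies farthest right at both ages, at 3.67 and 4.60, and Eno3 is the filled point left of 0 at 10 weeks.

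Of the glucose transporters, Slc2a1 rose and Slc2a3 did not pass the test. Slc2a1, the glucose transporter of the blood-brain barrier and of many other cells, read 12.37, 12.20 and 12.22 in Tfr1-null libraries at 3 weeks, against 11.26, 11.12 and 11.30 in controls. At 10 weeks it read 13.30, 13.30 and 13.44 in Tfr1-null libraries, against 12.32, 12.43 and 12.20 in controls. The groups did not overlap at either age, and the difference was 1.04 (SE 0.10, adjusted p = 0.000264) at 3 weeks and 1.03 (SE 0.10, adjusted p = 0.000168) at 10 weeks. Its 3 probe sets gave differences of 1.04 to 1.17 at 3 weeks, and of 1.03 to 1.40 at 10 weeks. Slc2a3, the high-affinity neuronal glucose transporter, read 12.87, 12.86 and 12.90 in Tfr1-null libraries, against 12.58, 12.52 and 12.62 in controls at 3 weeks (difference 0.30, adjusted p = 0.589). At 10 weeks its groups overlapped, at 13.67, 13.71 and 13.63 in Tfr1-null libraries and 14.12, 13.45 and 13.40 in controls (difference 0.01, adjusted p = 0.975). The 4 probe sets of Slc2a3 disagreed at 10 weeks, with 0.87 and 0.66 on the 2 dimmer ones, and the suffix of the chosen set, like those of Aldoa and Ldhb, marks probes that may also bind other transcripts.

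Slc2a1 is also made by endothelial cells, so their markers are given beside it. The summed signal of 16 endothelial and pericyte markers was 10.78 to 11.01 in Tfr1-null libraries and 11.03 to 11.40 in controls at 3 weeks. At 10 weeks it was 11.67 to 11.82 in Tfr1-null libraries and 11.51 to 11.74 in controls, with overlap. In the 12 libraries 0 of the 16 markers were called at either age. At 3 weeks 0.682% of all genes were called higher and 1.16% lower, and at 10 weeks 4.73% and 6.34%. An unadjusted p under 0.05 in limma was found for 1 and 2 markers, against 1934 and 4801 of all 18193 genes. The part of endothelial cells in the Slc2a1 result was not tested. The sums overlapped at both ages in the 14 libraries, at 10.78 to 11.40 in Tfr1-null libraries and 11.03 to 11.40 in controls at 3 weeks. None of these markers was below the 25th percentile of every array.

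Of the hexokinases, Hk2 rose and Hk1 and Hk3 did not pass the test. Hk2, the inducible hexokinase that binds mitochondria, read 10.46, 9.27 and 10.21 in Tfr1-null libraries at 3 weeks, against 6.47, 6.23 and 6.24 in controls. At 10 weeks it read 10.26, 11.23 and 10.79 in Tfr1-null libraries, against 5.79, 6.59 and 6.10 in controls. The rise of Hk2 was 3.67 at 3 weeks (SE 0.32, 12.7-fold, adjusted p = 0.000199), and it was 4.60 at 10 weeks (SE 0.32, 24.3-fold, adjusted p = 2.31e-05). Hk2 was read by a single probe set. Every Tfr1-null library of the 14, the doubtful one included, lay above every control of its age for Hk2 at both ages. The doubtful libraries left narrow margins: the library labelled Tfr1-null 3 weeks 1 read 6.65, against a highest control of 6.47. The library labelled Control 10 weeks 1 read 10.00, against a lowest Tfr1-null value of 10.26. Hk1, the main brain hexokinase, overlapped between the groups, at 11.43, 11.09 and 11.42 in Tfr1-null libraries and 11.41, 11.28 and 11.29 in controls at 3 weeks. At 10 weeks Hk1 read 12.66, 12.72 and 12.61 in Tfr1-null libraries and 12.53, 12.19 and 12.62 in controls, and its differences of -0.01 and 0.22 were not called (adjusted p = 0.999 and 0.320). The other probe set of Hk1 gave -0.23 at 3 weeks and 0.59 at 10 weeks, so its size at 10 weeks depends on the probe set. Hk3, found mainly in blood and myeloid cells, differed by -0.18 and -0.05 and was not called.

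**Figure D2:**
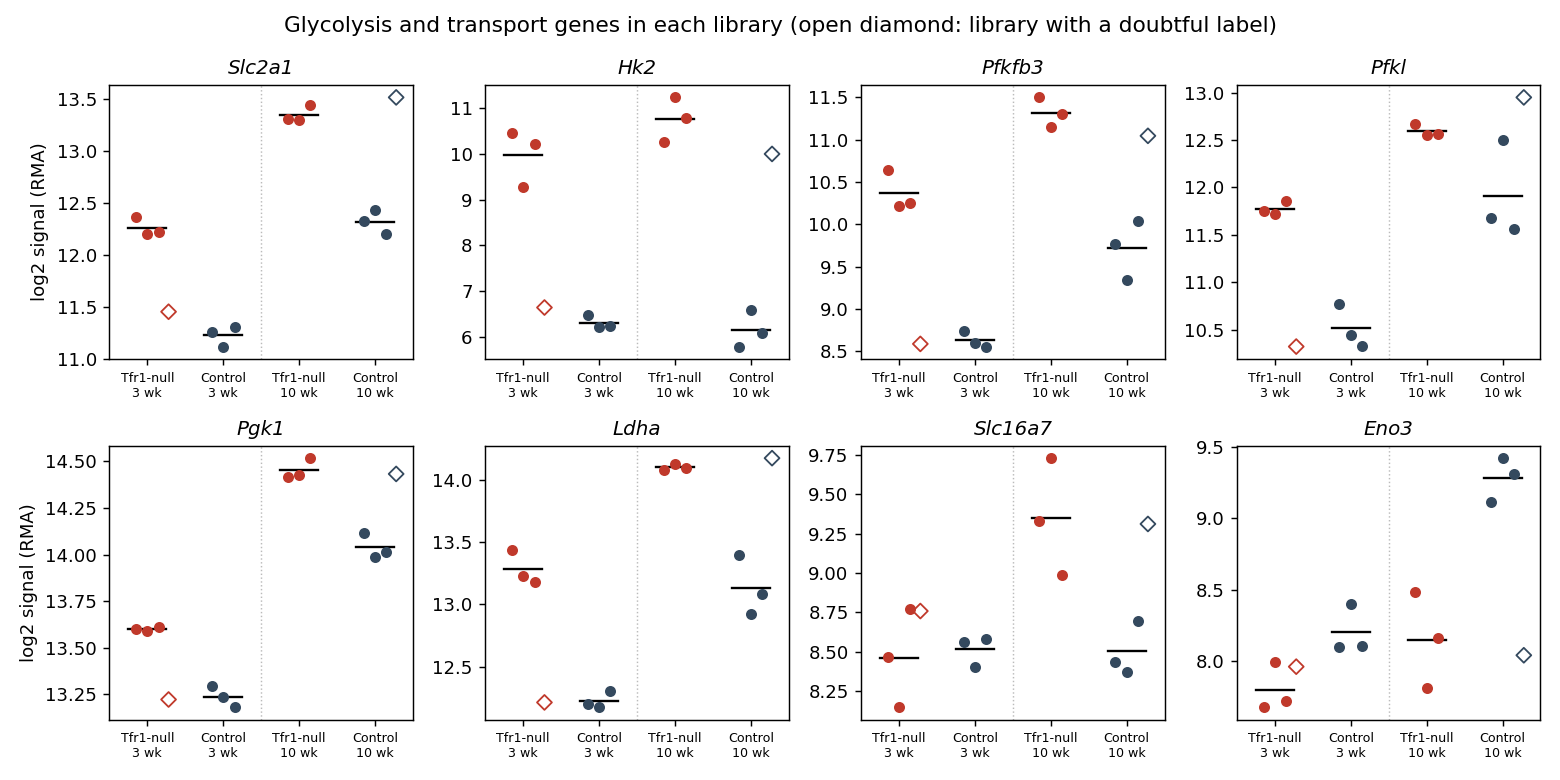
Log2 signal (y axis) of 8 members in each library, by group (x axis, Tfr1-null left of control at each age). Filled points are the 12 libraries, lines their group means, and open diamonds the 2 libraries with doubtful labels. In the panels for Slc2a1, Hk2, Pfkfb3, Pfkl, Pgk1 and Ldha the diamond labelled Tfr1-null at 3 weeks sits with the controls and the diamond labelled Control at 10 weeks with the Tfr1-null libraries.

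At the phosphofructokinase step the liver-type gene Pfkl rose at 3 weeks and the other types did not pass the test. Pfkl read 11.75, 11.72 and 11.86 in Tfr1-null libraries at 3 weeks, against 10.78, 10.45 and 10.34 in controls, and rose by 1.26 (SE 0.21, adjusted p = 0.0105). At 10 weeks Pfkl read 12.67, 12.55 and 12.57 in Tfr1-null libraries, against 11.67, 12.50 and 11.56 in controls. The difference of 0.68 (SE 0.21) missed the threshold in limma (adjusted p = 0.0642), and the library labelled Control 10 weeks 3 stood near the Tfr1-null libraries. Without that library the difference was 0.98 (limma, adjusted p = 0.00221), the largest of 21 alternatives. The alternatives ranged from 0.47 to 0.98, with limma adjusted p from 0.00221 to 0.346, and 2 of 21 were called. Pfkl is therefore not shown to rise at 10 weeks. At 3 weeks the Pfkl call was lost without the library labelled Control 3 weeks 2, Control 3 weeks 3 or Tfr1-null 3 weeks 4. The brighter 2 of its 3 probe sets gave 1.26 and 1.37 at 3 weeks and 0.68 and 0.71 at 10 weeks, while the third and dimmest gave 0.00 and 0.20. Pfkp, the platelet type also present in brain, differed by 0.34 at 3 weeks (adjusted p = 0.443) and 0.51 at 10 weeks (adjusted p = 0.0508), with no overlap between groups at either age. The dimmer probe sets of Pfkp gave 0.32 and -0.04 at 3 weeks and 0.79 and 0.83 at 10 weeks. Pfkm, the muscle type, overlapped between groups and differed by -0.06 and -0.08.

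Among the enzymes that make and break fructose 2,6-bisphosphate, Pfkfb3, whose kinase activity far exceeds its phosphatase activity, rose at both ages. Pfkfb3 read 10.64, 10.22 and 10.25 in Tfr1-null libraries at 3 weeks, against 8.74, 8.60 and 8.55 in controls, a difference of 1.74 (SE 0.18, adjusted p = 0.000524). At 10 weeks it read 11.50, 11.15 and 11.30 in Tfr1-null libraries, against 9.77, 9.34 and 10.04 in controls, a difference of 1.60 (SE 0.18, adjusted p = 0.000419). Its second probe set gave 1.76 and 1.92, so both sets moved alike. Pfkfb2, the heart type, differed by 0.04 at 3 weeks and rose by 0.41 at 10 weeks (SE 0.11, adjusted p = 0.0385), but its 4 probe sets gave 0.41, 0.66, -0.45 and 0.11 at 10 weeks, so its direction depends on the probe set. Pfkfb4, the testis type, differed by 0.13 and 0.02 and was not called. Tigar, a bisphosphatase that lowers fructose 2,6-bisphosphate and is no member, fell by 1.37 at 10 weeks (SE 0.10, adjusted p = 4.02e-05), with 11.55 to 11.82 in Tfr1-null libraries and 12.94 to 13.19 in controls. Tigar differed by -0.36 at 3 weeks (adjusted p = 0.152), and the change in its difference between the ages, -1.01 (SE 0.15), was itself called by limma (adjusted p = 0.0238). Both calls were lost with all 14 libraries as labelled, where Tigar differed by -1.06 at 10 weeks with overlapping groups (adjusted p = 0.0606) and its change between the ages had an adjusted p of 0.673. The ages also differed in sex pattern and array median, so a change between the ages cannot be told apart from these.

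Between aldolase and enolase, Tpi1, Pgk1 and Pgam1 rose and Eno3 fell, while the aldolases did not pass the test. Aldoa, the ubiquitous aldolase, differed by 0.06 and 0.14, and Aldoc, the brain aldolase used as a marker of astrocytes, by 0.24 and 0.17, and neither was called. Tpi1, which interconverts the triose phosphates, differed by 0.29 at 3 weeks (adjusted p = 0.0956) and rose by 0.27 at 10 weeks (SE 0.07, adjusted p = 0.0391). Tpi1 read 14.08, 14.13 and 14.07 in Tfr1-null libraries at 10 weeks, against 13.82, 13.87 and 13.77 in controls, with no overlap. The 3 control probe sets of Gapdh, the next enzyme, differed by 0.07 to 0.19 at 3 weeks and by 0.12 to 0.17 at 10 weeks in the 12 libraries, with every Tfr1-null library above every control, and were not tested. They differed in the 14 libraries by 0.06 to 0.14 with overlap at 3 weeks and by 0.10 to 0.15 at 10 weeks, with overlap on the middle probe set. Pgk1, the first ATP-yielding enzyme, read 13.60, 13.59 and 13.61 in Tfr1-null libraries at 3 weeks, against 13.29, 13.24 and 13.18 in controls. At 10 weeks Pgk1 read 14.42, 14.43 and 14.52 in Tfr1-null libraries, against 14.12, 13.99 and 14.02 in controls. It rose by 0.36 (SE 0.08, adjusted p = 0.0477) and 0.41 (SE 0.08, adjusted p = 0.00886). Pgk1 lies on the X chromosome, and the 3-week control with the male pattern read 13.24, between the other 2 controls.

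Pgam1, the phosphoglycerate mutase of brain and most tissues, differed by 0.26 at 3 weeks (adjusted p = 0.147) and rose by 0.35 at 10 weeks (SE 0.07, adjusted p = 0.0144), reading 14.06, 14.15 and 14.04 in Tfr1-null libraries against 13.74, 13.72 and 13.74 in controls. Pgam2, the muscle mutase, differed by -0.13 and 0.07 with overlapping groups. Eno2, the neuronal enolase, differed by -0.16 and 0.07 and was not called. Eno3, the muscle enolase, was the member that fell. It read 8.48, 7.81 and 8.16 in Tfr1-null libraries at 10 weeks, against 9.12, 9.42 and 9.31 in controls, and fell by 1.13 (SE 0.17, adjusted p = 0.00249). At 3 weeks Eno3 read 7.68, 7.99 and 7.72 in Tfr1-null libraries, against 8.10, 8.40 and 8.11 in controls, a difference of -0.40 (adjusted p = 0.413). All Tfr1-null libraries thus lay below all controls for Eno3 at both ages, on a single probe set.

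At the pyruvate end, Pkm, the pyruvate kinase of brain and muscle, differed by 0.21 at 3 weeks (adjusted p = 0.390) and rose by 0.33 at 10 weeks (SE 0.09, adjusted p = 0.0332). It read 14.25, 14.28 and 14.22 in Tfr1-null libraries at 10 weeks, against 13.96, 13.78 and 14.02 in controls. The array cannot tell its splice forms apart here, since it was read by 1 probe set. Pklr, the liver and red-cell pyruvate kinase, differed by -0.13 and -0.37 (adjusted p = 0.871 and 0.0776). The dimmer probe sets of Pklr gave 0.01 and 0.14 at 3 weeks and 0.18 and 0.03 at 10 weeks, so its direction depends on the probe set.

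Ldha, the lactate dehydrogenase subunit that favours lactate formation, read 13.44, 13.23 and 13.18 in Tfr1-null libraries at 3 weeks, against 12.20, 12.18 and 12.30 in controls. At 10 weeks Ldha read 14.08, 14.12 and 14.10 in Tfr1-null libraries, against 13.40, 12.92 and 13.09 in controls. The rise of Ldha was 1.05 at 3 weeks (SE 0.12, adjusted p = 0.00115), and it was 0.96 at 10 weeks (SE 0.12, adjusted p = 0.000903). Ldhb, the subunit of oxidative tissues, read 13.58, 13.64 and 13.63 in Tfr1-null libraries and 13.72, 13.70 and 13.70 in controls at 3 weeks. At 10 weeks Ldhb read 14.09, 14.28 and 14.28 in Tfr1-null libraries and 14.42, 14.47 and 14.43 in controls. Its differences of -0.09 and -0.22 were not called (adjusted p = 0.858 and 0.110), though the groups did not overlap.

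Of the lactate transporters, Slc16a1 (MCT1), found on glia, endothelium and some neurons, read 11.84, 11.46 and 11.65 in Tfr1-null libraries at 10 weeks, against 10.81, 11.22 and 10.68 in controls. It rose by 0.75 at 10 weeks (SE 0.15, adjusted p = 0.0122) and differed by 0.48 at 3 weeks (adjusted p = 0.215). Slc16a7 (MCT2), the high-affinity transporter of neurons, read 9.33, 9.73 and 8.99 in Tfr1-null libraries at 10 weeks, against 8.44, 8.38 and 8.70 in controls, and rose by 0.85 (SE 0.20, adjusted p = 0.0206). At 3 weeks its groups overlapped and the difference was -0.05. Slc16a3 (MCT4), known for lactate export from glycolytic cells, overlapped at both ages and differed by 0.05 and 0.49 (adjusted p = 0.997 and 0.283). Bsg (basigin), the chaperone that brings MCT1 and MCT4 to the membrane and no member, rose by 0.51 at 10 weeks (SE 0.13, adjusted p = 0.0327), with 13.90 to 14.32 in Tfr1-null libraries and 13.30 to 13.73 in controls. In the 14 libraries the Bsg difference was 0.45 and was not called (adjusted p = 0.125).

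Whether 1 isoform of a step changed relative to another was tested on the difference between the 2 within each library, with an exact permutation test (two-sided, labels permuted within each age) and p-values adjusted over 10 pairs. Signals of different probe sets have no common scale, so the change of the difference between genotypes is read and not its level. In the 12 libraries 6 of the 10 pairs were called. The shift, averaged over the ages, was 4.03 for Hk2 over Hk1, 1.44 for Pfkfb3 over Pfkfb2, 1.16 for Ldha over Ldhb, 0.88 for Slc2a1 over Slc2a3 and 0.49 for Pfkp over Pfkm, each with an exact p of 0.005, the smallest that the design allows (adjusted p = 0.01). Pfkl over Pfkm shifted by 1.04 (exact p = 0.01, adjusted p = 0.0167), with overlapping groups at 10 weeks. The pairs Pfkfb4 over Pfkfb2 (-0.15), Aldoa over Aldoc (-0.11), Slc16a1 over Slc16a7 (0.22) and Slc16a3 over Slc16a1 (-0.35) were not called, with exact p between 0.145 and 0.375. With all 14 libraries, Hk2 over Hk1 (3.17, exact p = 0.00163, adjusted p = 0.0163), Slc2a1 over Slc2a3 (0.67, exact p = 0.0131, adjusted p = 0.0435) and Pfkfb3 over Pfkfb2 (1.10, exact p = 0.0131, adjusted p = 0.0435) were called, and Ldha over Ldhb (0.85, adjusted p = 0.0571), Pfkp over Pfkm (0.35, adjusted p = 0.0833) and Pfkl over Pfkm (0.68, adjusted p = 0.114) were not. A pair of Eno1 and Eno2 had been planned and could not be run.

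**Figure D3:**
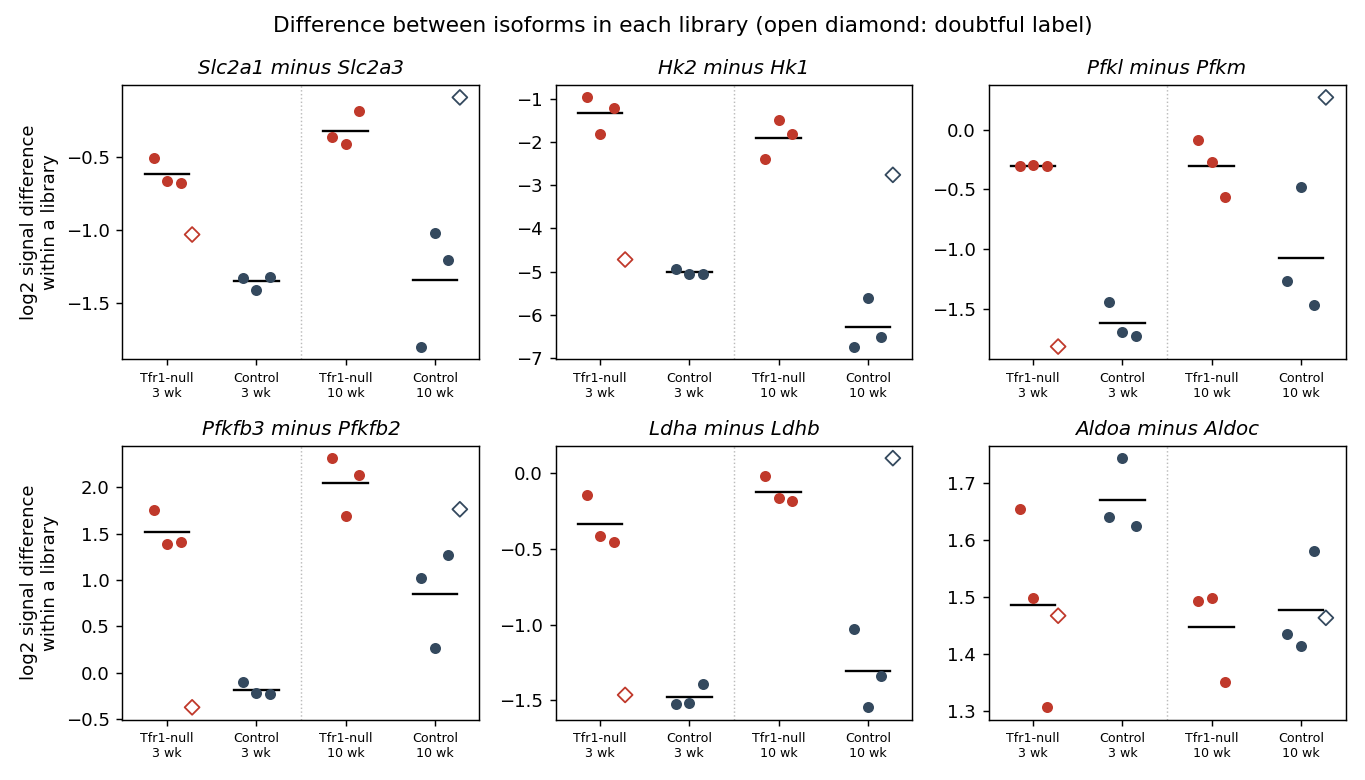
Difference in log2 signal between 2 isoforms within each library (y axis), by group (x axis, Tfr1-null left of control at each age). Points are libraries, lines the mean of the 3 libraries without doubtful labels, and open diamonds the libraries with doubtful labels. The filled Tfr1-null points lie above the filled control points of the same age in the panels for Slc2a1, Hk2, Pfkfb3 and Ldha; for Pfkl minus Pfkm they do so at 3 weeks but overlap at 10 weeks, where the lowest Tfr1-null point is -0.56 and the highest control -0.48, and the groups also overlap for Aldoa minus Aldoc.

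The differences at 3 and at 10 weeks, which rest on separate libraries, were set side by side. Of the 26 members, 22 had the same sign at both ages in the 12 libraries, and the differences correlated across members with a Pearson r of 0.94 and a Spearman rho of 0.79 (n = 26 genes, which are not independent). Without Hk2 and Pfkfb3 the Pearson r was 0.73. With all 14 libraries 23 members had the same sign. The Pearson r was then 0.94, the Spearman rho 0.80 and the Pearson r without those 2 genes 0.72. Neither the share of equal signs nor the correlation was computed over all genes, so these values are not read as particular to the members. The change of the genotype difference between the ages was called for 0 members by limma in the 12 libraries, against 0.286% of all genes, and for 0 of 26 in the 14 libraries, where 0 members and 7.48% of all genes had an unadjusted p under 0.05. At an unadjusted p under 0.05 it was found for 3 members, against 12.2% of all genes: Slc16a7 by 0.90 (SE 0.28), Eno3 by -0.73 (SE 0.24) and Pfkfb2 by 0.36 (SE 0.16), with adjusted p between 0.219 and 0.374. So the calls made at a single age are not shown to differ between ages.

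**Figure D4:**
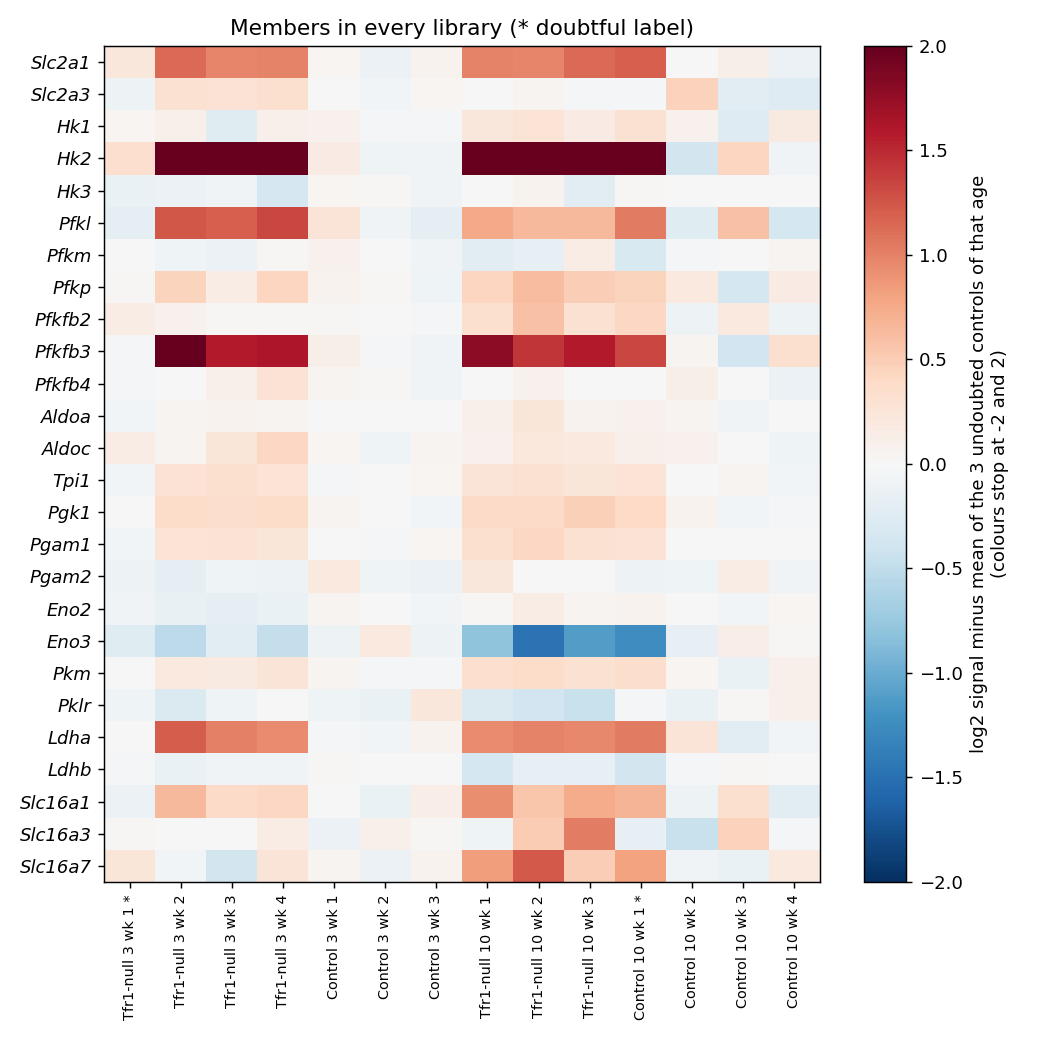
Log2 signal of the 26 members (y axis) in all 14 libraries (x axis, grouped by label) minus the mean of the 3 controls of the same age without doubtful labels, with colours stopped at -2 and 2. The column labelled Tfr1-null 3 wk 1 is pale like the controls, and the column labelled Control 10 wk 1 is red at Slc2a1, Hk2, Pfkl, Pfkfb3 and Ldha like the Tfr1-null libraries.

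The 2 libraries with doubtful labels took the side opposite to the one they name. Slc2a1 in the library labelled Tfr1-null 3 weeks 1 read 11.45, Hk2 6.65, Pfkfb3 8.59 and Ldha 12.21, and this library was nearer the control mean for 6 of 6 members called at 3 weeks. In the library labelled Control 10 weeks 1, Slc2a1 read 13.52, Hk2 read 10.00, Pfkfb3 11.04 and Ldha 14.17, and this library was nearer the Tfr1-null mean for 12 of 12 members called at 10 weeks. With both in as labelled, the Hk2 difference was 2.84 (SE 0.98, adjusted p = 1.00) at 3 weeks and 3.64 (SE 0.98, adjusted p = 0.0806) at 10 weeks. The same values were 0.83 and 0.73 for Slc2a1, 1.29 and 1.27 for Pfkfb3, 0.79 and 0.70 for Ldha, 0.89 and 0.43 for Pfkl and 0.27 and 0.32 for Pgk1, none called. At 10 weeks Pfkfb2 then differed by 0.30, Tpi1 by 0.21, Pgam1 by 0.28, Pkm by 0.25, Slc16a1 by 0.58, Slc16a7 by 0.65 and Eno3 by -0.82, none called.

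In the 12 libraries, all Tfr1-null libraries lay above all controls for 14 of 26 members at 3 weeks, against 13.3% of all genes, and for 14 at 10 weeks, against 9.87% of all genes. They lay below all controls for Eno2, Eno3 and Ldhb at 3 weeks, against 11.6% of all genes, and for Eno3, Pklr and Ldhb at 10 weeks, against 12.7% of all genes. With all 14 libraries, Slc2a1, Hk2 and Aldoc lay above and Eno2, Eno3 and Ldhb below at 3 weeks, against 8.16% of all genes in either direction. At 10 weeks Hk2, Pfkfb3 and Pgam1 lay above and Pklr below, against 10.1% of all genes in either direction.

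In the neighbouring pathways, counts in the 12 libraries are read against 0.682% of all genes higher and 1.16% lower at 3 weeks, and 4.73% higher and 6.34% lower at 10 weeks. Of 25 measured further sugar transporters, glycolytic isoforms and regulators, 0 rose and 1 fell at 3 weeks, and 1 rose and 3 fell at 10 weeks. Slc2a5, the fructose transporter, fell by 0.70 at 3 weeks (SE 0.14, adjusted p = 0.0258), with 5.58 to 5.86 in Tfr1-null libraries and 6.29 to 6.56 in controls. At 10 weeks Ldhd, the mitochondrial D-lactate dehydrogenase, fell by 1.33 (SE 0.32, adjusted p = 0.0244) and Slc2a13, the proton-coupled inositol transporter, fell by 0.54 (SE 0.14, adjusted p = 0.0342), beside Tigar and Bsg above. Of 10 measured pentose phosphate pathway genes 0 were called at either age. An unadjusted p under 0.05 in limma was found for 2 and 0 of them, against 1934 and 4801 of all 18193 genes. Of 10 genes of the glycerol phosphate and malate-aspartate shuttles, which carry the electrons of cytosolic NADH into mitochondria, 0 were called at 3 weeks and Got1, the cytosolic aspartate aminotransferase, rose by 0.49 at 10 weeks (SE 0.10, adjusted p = 0.0106). Got1 was still called at 10 weeks in the 14 libraries, at 0.46 (adjusted p = 0.0378), where 1.21% of all genes were called in either direction. The other calls were lost there: Slc2a5 differed by -0.51 at 3 weeks (adjusted p = 1.00), and Ldhd by -0.998 (adjusted p = 0.242) and Slc2a13 by -0.40 (adjusted p = 0.189) at 10 weeks.

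Of 19 transcriptional and kinase regulators of glycolysis, 2 rose at each age and 0 fell in the 12 libraries, against 0.682% of all genes higher at 3 weeks and 4.73% at 10 weeks. In the 14 libraries 0 of the 19 were called at either age. There 2 and 4 had an unadjusted p under 0.05 in limma, against 4.67% and 19.9% of all genes. Egln1, the main prolyl hydroxylase that marks hypoxia-inducible factor for destruction and itself one of its targets, rose at 3 weeks by 0.82 (SE 0.12, adjusted p = 0.00453) and by 0.77 at 10 weeks (SE 0.12, adjusted p = 0.00318). Egln1 read 11.11 to 11.18 in Tfr1-null libraries and 10.28 to 10.36 in controls at 3 weeks. Its groups overlapped at both ages in the 14 libraries, and both differences were 0.60 and not called (adjusted p = 1.00 and 0.188). Hif1an, the asparaginyl hydroxylase that inhibits the factor, rose by 1.07 at 3 weeks (SE 0.13, adjusted p = 0.00129) and differed by 0.31 at 10 weeks (adjusted p = 0.153). Hif1an differed in the 14 libraries by 0.83 at 3 weeks, with overlapping groups, and was not called (adjusted p = 1.00). Hif1a, the alpha subunit of the factor, rose by 0.70 at 10 weeks (SE 0.19, adjusted p = 0.0413) and differed by -0.26 at 3 weeks (adjusted p = 0.780). Its 10-week difference with all 14 libraries was 0.57 (adjusted p = 0.142).

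Markers of the neurons and of other cells of the midbrain moved with genotype in part. The summed signal of 12 dopaminergic markers was 16.14 to 16.22 in Tfr1-null libraries and 16.28 to 16.33 in controls at 3 weeks, and 16.78 to 17.02 in Tfr1-null libraries and 17.10 to 17.18 in controls at 10 weeks, with 0 and 3 of the 12 called lower, against 1.16% and 6.34% of all genes. With all 14 libraries the sums at 10 weeks overlapped, at 16.78 to 17.02 in Tfr1-null libraries and 16.78 to 17.18 in controls. There 0 of the 12 were called at either age. An unadjusted p under 0.05 in limma was found for 1 and 7 of them, against 4.67% and 19.9% of all genes. In such bulk material fewer cells of a type and less RNA per cell cannot be told apart. The sum of 13 microglia markers was 11.12 to 11.68 in Tfr1-null libraries and 11.20 to 11.37 in controls at 3 weeks. At 10 weeks it was 12.50 to 13.09 in Tfr1-null libraries and 11.75 to 12.34 in controls, so the groups did not overlap, and 1 of 13 markers was called higher at each age, against 0.682% and 4.73% of all genes. The 10-week microglia sums overlapped in the 14 libraries, with controls at 11.75 to 13.27, and 0 of the markers of any of these cells were called at either age. The sums of 11 astrocyte markers (14.41 to 14.89 in Tfr1-null libraries and 14.29 to 14.72 in controls at 10 weeks, 1 of 11 called higher), 11 oligodendrocyte markers (14.87 to 15.32 in Tfr1-null libraries and 14.80 to 15.42 in controls, 0 called) and 7 red blood cell markers (11.29 to 11.63 in Tfr1-null libraries and 11.21 to 11.82 in controls, 0 called, Hemgn dim in every library) overlapped at 10 weeks. They also overlapped at 3 weeks, with 0 called. The part of these cells in the glycolysis results was not tested.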

How the data were processed

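The values were log2 signals that the authors deposited for 45101 probe sets in 14 libraries, made by RMA in Partek 6.5, per the submitters' processing notes. Per the labels' protocols, 50 ng of RNA was amplified with NuGEN Ovation V2. No array scan or detection call was used here, and the number of arrays limits the precision. Every column matched a library.

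Probe sets were named through the platform annotation: 34958 had 1 gene, 932 several and 9211 none. Probe sets with several genes and control probe sets were left out, which kept 34945 for 18193 genes, and dim ones were kept. Groups came from titles and genotypes. A 4-group model was fitted over all genes with limma 3.58.1 (lmFit, eBayes) in R 4.3.3, and p-values were adjusted by Benjamini-Hochberg; adjusted p under 0.05 counted as called. SE is limma's moderated standard error. Isoform pairs were tested by exact permutation (400 relabellings of 12 libraries, 1225 of 14). Correlations of deviations between libraries of the same age and replicate number lay between -0.03 and 0.09, so the numbers were not taken to pair libraries. The scripts were tested on simulated data. Motifs and figures were made in Python 3.11.15 (numpy 2.4.6, matplotlib 3.10.9).

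All 30 members are described; of the other pathway lists, called genes were named, at most 6 per list by smallest p. The members, the lists and the set of 12 libraries were chosen with earlier results of these data known. The alternatives tried were other normalizations, filters, probe set choices, array weights, a replicate block, each age alone and each library left out.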

Additional observations from a re-analysis of the deposited data

Results flagged for a closer look

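In the 2 groups of 4 libraries, the highest or lowest signal of each of the 26 members was compared with the other 3. A library stood apart in 11 of 52 such comparisons. The members were read on the same libraries, and both groups hold a library with a doubtful label, so this count is not set against chance. The library labelled Tfr1-null 3 weeks 1 was low for Slc2a3 (12.48, against 12.86 to 12.90 in the other 3), Pfkl (10.32, against 11.72 to 11.86), Tpi1 (13.00, against 13.33 to 13.37), Pgk1 (13.22, against 13.59 to 13.61) and Pgam1 (12.80, against 13.08 to 13.13). The library labelled Control 10 weeks 1 was high for Pgam1 (14.03, against 13.72 to 13.74) and Hk3 (8.18, against 8.16 in each of the others) and low for Ldhb (14.07, against 14.42 to 14.47). For Hk3 the others were tied, so that any gap, however small, is flagged. The libraries labelled Tfr1-null 3 weeks 1 and Control 10 weeks 1 are the 2 with doubtful labels. Outside them, Pgam2 was low in Tfr1-null 3 weeks 2 (7.37, against 7.46 to 7.48) and high in Control 10 weeks 3 (7.78, against 7.53 to 7.56), and Slc16a3 was high in Tfr1-null 3 weeks 4 (9.83, against 9.67 to 9.70).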

How the results depend on the processing

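The 12-library calls of Hk2, Slc2a1, Pfkfb3 and Ldha held at both ages in 20 of 21 alternatives and were lost with the replicate block. With that block, which the numbers do not support as a pairing, 0 members were called at 3 weeks (against 6) and 0 at 10 weeks (against 12). Array weights called 11 members at 3 weeks and 7 at 10 weeks, and 6 at 3 weeks in the 14 libraries as labelled (against 0). The 10-week libraries fitted alone gave 4 calls. Leaving out each library in turn gave 4 to 6 calls at 3 weeks and 8 to 11 at 10 weeks in the 12 libraries. In the 14 libraries it gave 0 at 3 weeks and 0 to 11 at 10 weeks, with 11 reached without Control 10 weeks 1. The member counts of these alternative fits are given without the share of all genes called in each fit. They are therefore not read as results about the members. With each library left out, the isoform pairs called were 6 of 10 in the 12 libraries and 0 to 6 in the 14, with 6 reached without either doubtful library. The weakest calls were Pfkfb2 (4 of 21 alternatives), Tpi1 (5) and Pkm (9) at 10 weeks and Pgk1 (10) at 3 weeks. Pfkfb2 at 10 weeks reversed with its probe set of largest variance, to -0.45 in 12 libraries and -0.46 in 14. Slc16a7 at 3 weeks, not called in any alternative, had no stable sign: leaving out each library gave -0.21 to 0.10 in 12 libraries (main -0.05) and -0.06 to 0.15 in 14, array weights gave 0.026 in 12, and the replicate block gave -0.059 in 14. Beyond these, the cause was not tested. The deposited values carry no signal over background, so small differences of dim probe sets are not bounded here.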
